A study of Homo sapiens with 4 samples.

Results

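Long non-coding RNAs (lncRNAs) without a gene symbol that share exonic bases with a protein-coding gene on the same strand were described in HUH7 cells. A transcript was taken when its model in the GENCODE annotation, release 44 mapped to GRCh37, was an lncRNA known only by an ENSG identifier and at least 1 of its exonic bases lay on an exon of a protein-coding transcript of the same strand. The major histocompatibility region on chromosome 6 was left out. In all, 282 of 19835 measured transcripts qualified. They belonged to 217 genes on 24 chromosomes and lay on exons of 255 coding genes, called host genes here. For comparison, 1332 unnamed lncRNA transcripts met coding exons only on the opposite strand, and 5927 unnamed ones met none.

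HUH7 is an established human hepatocellular carcinoma line. It was cultured in DMEM with serum and without any treatment, and the 4 libraries (replicates 1 to 4) formed a single group from which the study chose lncRNAs above 5 FPKM for a knockdown screen. Sample titles mark replicates 1 and 3 with the letter L and replicates 2 and 4 with H, and since the series' design text says these letters stand for no variable, no comparison was made between them. FPKM are fragments divided by transcript length and library size, computed by the authors on a reference of non-coding transcripts. HULC, a lncRNA known for high levels in liver carcinoma, had a transcript (ENST00000503668) at 689 ± 64.6 FPKM, and errors are SD over n = 4 libraries throughout.

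An lncRNA model can meet a coding gene on the same strand in several ways. Some models lie wholly inside a long 3′ untranslated region (UTR), some start at an alternative promoter and splice into coding exons, and some read through the end of a gene and splice into its neighbour. Such a read-through transcript carries exons of neighbouring genes in a single RNA, often without a usable open reading frame. Messenger RNA of the host contains the same bases. Because the authors' reference was built from transcripts annotated as non-coding at the time, a read of the mRNA that fell on shared exons could be placed on the lncRNA, and the FPKM of a shared stretch cannot be told apart between lncRNA and mRNA. All levels below carry that limit.

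The splice between neighbouring genes is the sequence that sets a read-through transcript apart from the mRNA of its host. The 5 read-through joins of highest level with coding sequence on both sides and a 5′ splice site that coding transcripts of the upstream gene also use are shown in this way. Each line holds the last 15 bases of the upstream exon in lower case and the first 15 bases of the next exon in capitals, 5′ to 3′ on the strand of the transcript (GRCh37). The line of the lncRNA is followed by the junction that most coding transcripts with this splice site use.
UCHL3 to LMO7, lncRNA ENST00000570285: atctctatgaattagAGAACAGAGCTCGGA
UCHL3, coding junction: atctctatgaattagATGGGCGGAAGCCAT
HIF1A to SNAPC1, lncRNA ENST00000555937: gaattacgttgtgagTGGCAGAATGAGAAA
HIF1A, coding junction: gaattacgttgtgagTGGTATTATTCAGCA
DUS2 to NFATC3, lncRNA ENST00000548144: tcagtctaccttgtgATCTTGAGCCAGATG
DUS2, coding junction: tcagtctaccttgtgGGACAAGTCCAAGAA
HSD17B11 to HSD17B13, lncRNA ENST00000508163: aacaacattggaaagCGCGGTGTGGAGGAA
HSD17B11, coding junction: aacaacattggaaagGATCCTTCCTGAGCG
MNAT1 to SLC38A6, lncRNA ENST00000553946: gctaggaagacttggGAACTTCACAGACAG
MNAT1, coding junction: gctaggaagacttggGTATTTAAACCATGT

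The capitals of the first pair came from chr13:76195899-76195913 in LMO7 and from chr13:76178905-76178919 in UCHL3, both on the plus strand. Those of the HIF1A pair came from chr14:62233594-62233608 in SNAPC1 and chr14:62203607-62203621 in HIF1A, on the plus strand. In the DUS2 pair they lay at chr16:68155890-68155904 in NFATC3 and chr16:68112652-68112666 in DUS2, on the plus strand. In the HSD17B11 pair they lay at chr4:88239574-88239588 in HSD17B13 and chr4:88258504-88258518 in HSD17B11, on the minus strand. In the MNAT1 pair they lay at chr14:61449226-61449240 in SLC38A6 and chr14:61434947-61434961 in MNAT1, on the plus strand. The coding junctions occurred in 2, 4, 3, 2 and 3 annotated coding transcripts, in the order shown. FPKM are summed over a whole transcript, so they do not say how many reads crossed these junctions.

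By structure, the 282 transcripts were short and few-exonic. Their length had a median of 629.5 nt (172 to 15214), 29 had a single exon, 110 had 2 exons and the most complex model had 19. The overlap with coding exons ranged from 1 to 15214 bases, with a median of 290 bases or 47.4% of the transcript, and 68 transcripts lay wholly on coding exons. The first exon touched the host in 214 transcripts and the last exon in 170. Of 683 splice junctions, 247 (36.2%) were also junctions of a coding transcript, and in 16 transcripts every junction was. A single host gene was met by 235 transcripts, 2 host genes by 44 and more than 2 by 3. The annotation called 266 of the transcripts lncRNA and 16 retained intron.

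As a set, these transcripts stood higher than the rest of the table. Their median was 8.47 FPKM (7.60 to 9.67 over the 4 libraries), against 0.338 FPKM for all transcripts, 0.203 FPKM for unnamed lncRNAs opposite coding exons and 0.143 FPKM for unnamed lncRNAs that met none. A mean above 5 FPKM was found for 158 transcripts (56.0%), where the background over all transcripts was 28.4%, and the other unnamed groups gave 21.7% and 25.7%. Above 100 FPKM were 48 (17.0%, background 5.53%). Listed at 0 in all 4 libraries were 62 (22.0%, background 39.4%). These are descriptions of the groups with no test between them.

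Each transcript was also tested against 5 FPKM by limma on log2(FPKM + 1), in 1 fit over the 11435 transcripts of the table with a mean of at least 0.1 FPKM. Of the 282 transcripts, 216 entered the fit. At an adjusted p under 0.05, 142 (65.7% of those tested) were above 5 FPKM and 42 below, and the remaining 32 could not be placed on either side. The background was 41.9% above and 43.3% below among all transcripts tested. Of the 66 transcripts not tested, 4 had a value above 0 in some library. Exceeding 5 FPKM in each of the 4 libraries were 146 transcripts (background 24.5%), and 167 did so in at least 1 library.

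The 282 transcripts summed to 20612 ± 993 FPKM, or 1.09 ± 0.0769% of all FPKM in the table, and to 2.90 ± 0.231% when the single most abundant row of the table was left out. A few of them held most of this. The highest one took 12.2 ± 1.63% of the summed level and the 12 highest took 47.1 ± 1.71%. Between 155 and 159 transcripts exceeded 5 FPKM in any 1 library, and log2(FPKM + 1) of the 282 correlated at 0.978 to 0.985 (Pearson) between libraries, a description over transcripts that share a library. Estimated depths were 4510000 to 5030000 fragments per library, and transcripts over 300 nt whose model matched the authors' version and whose mean was at least 5 FPKM rested on a median of 224 estimated fragments (7.71 to 11886, 112 transcripts).

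The kind of coding sequence shared went with different levels. Read-through transcripts that joined at least 2 coding genes (37 transcripts, 30 genes) had a median of 62.6 FPKM, 31 of them (83.8%) had a mean above 5 FPKM and 28 were above it by limma. Transcripts without a join that shared mostly 3′ UTR (112) had a median of 14.3 FPKM, with 71 above 5 FPKM and 62 by limma. Those sharing mostly coding sequence (45) had a median of 4.98 FPKM, with 22 above 5 FPKM and 22 by limma. Those sharing mostly 5′ UTR (88) were lowest at a median of 2.07 FPKM, with 34 above 5 FPKM and 30 by limma. The limma counts were 75.7%, 55.4%, 48.9% and 34.1% of the classes in the order named, where the background over all transcripts was 24.1%. Of tested transcripts only, the 5′ UTR class had 49.2% above, near the background of 41.9%. Library medians did not overlap between the read-through class (47.3 to 70.0 FPKM), the 3′ UTR class (11.2 to 14.9), the coding-sequence class (4.48 to 6.21) and the 5′ UTR class (1.54 to 1.96). The order of the last 2 classes rested on transcripts with sequence found elsewhere in the genome (at least 25%, defined below). Without these, medians were 53.7, 11.7, 1.91 and 1.59 FPKM in the order named, and the library medians of the coding-sequence class (1.30 to 3.34) and the 5′ UTR class (0.83 to 1.76) overlapped.

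**Figure D1:**
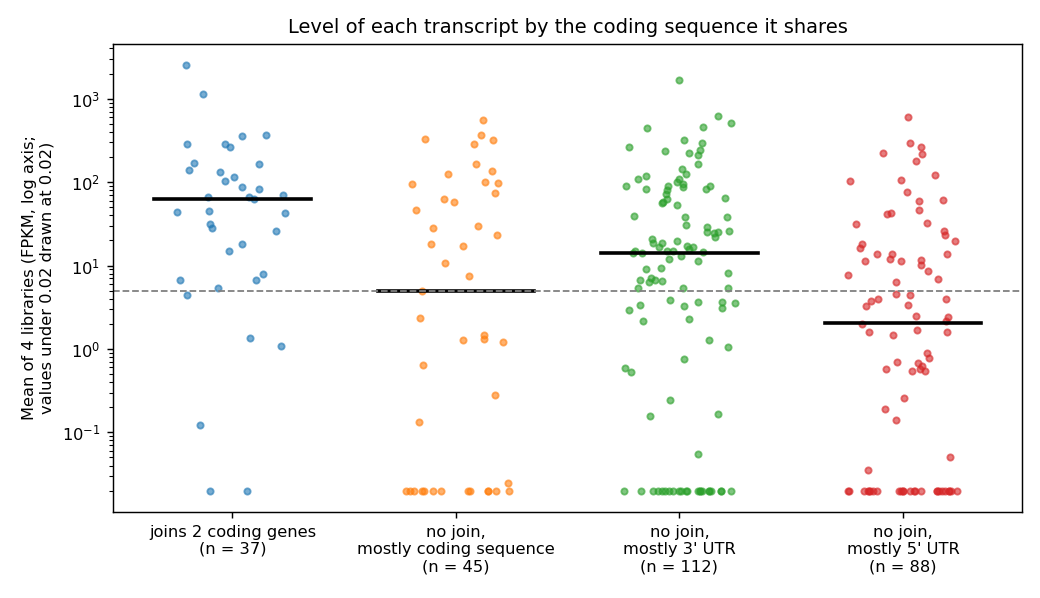
Mean FPKM of 4 libraries for each of the 282 transcripts (points, log axis, values under 0.02 drawn at 0.02), grouped by the coding sequence they share. Black bars are medians (62.6, 4.98, 14.3 and 2.07 FPKM from left to right) and the dashed line marks 5 FPKM, and every class reaches from at or near 0 up to a highest transcript of 557 FPKM or more.

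Levels did not rise steadily with the amount of shared sequence. Transcripts with under 10% of their bases on coding exons (34) had a median of 17.4 FPKM and those with at least 90% (78) had 18.6 FPKM, while the bands of 10 to under 50% (114) and 50 to under 90% (56) had 3.65 and 5.81 FPKM. By limma 19 (55.9%), 47 (60.3%), 49 (43.0%) and 27 (48.2%) transcripts of these bands were above 5 FPKM, in the order named, where the background over all transcripts was 24.1%. The tie of the lowest and highest bands rested on transcripts with sequence found elsewhere in the genome (defined below). Without these, medians were 6.80, 14.7, 3.45 and 5.155 FPKM in the same order, and the band of at least 90% stood highest. Over the 216 tested transcripts, Spearman's rho between level and percentage on coding exons was 0.063, a description over transcripts that share libraries and base composition.

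Sequence found elsewhere in the genome moved with the level in every band and class. In 28 transcripts at least 25% of the sequence was repeated (24-base words with at least 10 genomic copies) or matched to a gene of another locus. These 28 had a median of 96.8 FPKM and 22 of them were above 5 FPKM, against 6.78 FPKM and 136 of the other 254. In the band under 10%, 8 such transcripts had a median of 318 FPKM and the other 26 had 6.80 FPKM. By class, the median of such transcripts was 89.9 FPKM for 5′ UTR (8 transcripts), 191 for 3′ UTR (8), 18.0 for coding sequence (7) and 132 for read-through transcripts (5), each above the medians of the others given before. Whether reads of other copies contributed was not tested.

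The highest read-through transcript was ENST00000579126 (chr18:9102734-9182522, plus strand, 914 nt, 9 exons), which took 84.4% of its length from NDUFV2, a subunit of mitochondrial complex I, and 15.1% from ANKRD12, a nuclear ankyrin repeat protein. It stood at 2869, 2049.7, 2713 and 2444 FPKM in replicates 1 to 4 (2519 ± 359). The lowest library still exceeded 5 FPKM by far, and limma gave a log2 difference of 8.70 ± 0.10 (SE) with an adjusted p of 4.88e-12. Of its 8 junctions 7 were junctions of coding transcripts, and 75.9% of its sequence matched the pseudogene NDUFV2P1.

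ENST00000581915 (chr17:30651450-30687719, plus strand, 514 nt) joined an exon of RHBDL3, a rhomboid family protein, to exons of ZNF207, a zinc finger protein of the mitotic spindle, which held 81.5% of it. It stood at 1288, 1096, 1073 and 1085 FPKM. Replicate 1 was the highest and the other 3 lay close together, and no repeated or shared sequence was found in it. ENST00000547717 (chr12:53835525-53861312, plus strand, 13 exons) joined PRR13 to PCBP2, an RNA-binding protein, and had 423, 427, 285 and 329 FPKM. Replicates 1 and 2 were the higher ones, and 69.9% of its sequence matched PCBP2P2, a pseudogene.

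ENST00000570285 (chr13:76140968-76197456, plus strand, 386 nt) carried exons of UCHL3, a ubiquitin hydrolase, for 59.6% of its length and of LMO7, a LIM domain protein, for 40.4%. It stood at 384, 317, 350 and 370 FPKM (355 ± 29.2), a CV of 8.23%. A second, 4128 nt isoform of the same gene (ENST00000563635) used the same join and had 175, 149, 181 and 154 FPKM. The libraries of the isoforms did not overlap.

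The other joins printed above lay in transcripts between 115 and 286 FPKM. The HIF1A to SNAPC1 transcript, which links the hypoxia-inducible transcription factor to a subunit of the small nuclear RNA activating complex, stood at 372, 207, 346 and 219 FPKM. Replicates 1 and 3, titled L, were high and replicates 2 and 4, titled H, were low, with a CV of 29.8%. A difference between the letters was not tested. The DUS2 to NFATC3 transcript, from a tRNA-modifying enzyme into a transcription factor gene, was even at 283, 312, 269 and 267 FPKM. The HSD17B11 to HSD17B13 transcript, which links neighbouring genes of lipid droplet dehydrogenases, had 231, 282, 260 and 280.1 FPKM. The 200 nt MNAT1 to SLC38A6 transcript had the smallest spread of the 5, at 117, 111, 113 and 119 FPKM.

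Of the 37 read-through transcripts, 33 spliced directly from a host exon to an exon of the next host. The introns of these 33 joins had a median of 25751 bases (567 to 467234), and 33 of 33 began with GT and ended with AG. An intron used by several isoforms of a gene, as for UCHL3 to LMO7, was counted once for each. Coding transcripts used the same 5′ splice site in 19, the same 3′ splice site in 26 and both in 15. That 0 of 33 junctions occurred in a protein-coding transcript follows from the definition. Exons that met the same coding gene were not counted as a join. Together the read-through transcripts held 32.8 ± 2.27% of the summed level of the 282. At the low end, PGA4 to PGA5 (pepsinogens) and KIR3DL3 to KIR2DL1 (killer cell receptors) were listed at 0 in all 4 libraries. A further 10 transcripts met more than 1 host without such a join.

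**Figure D2:**
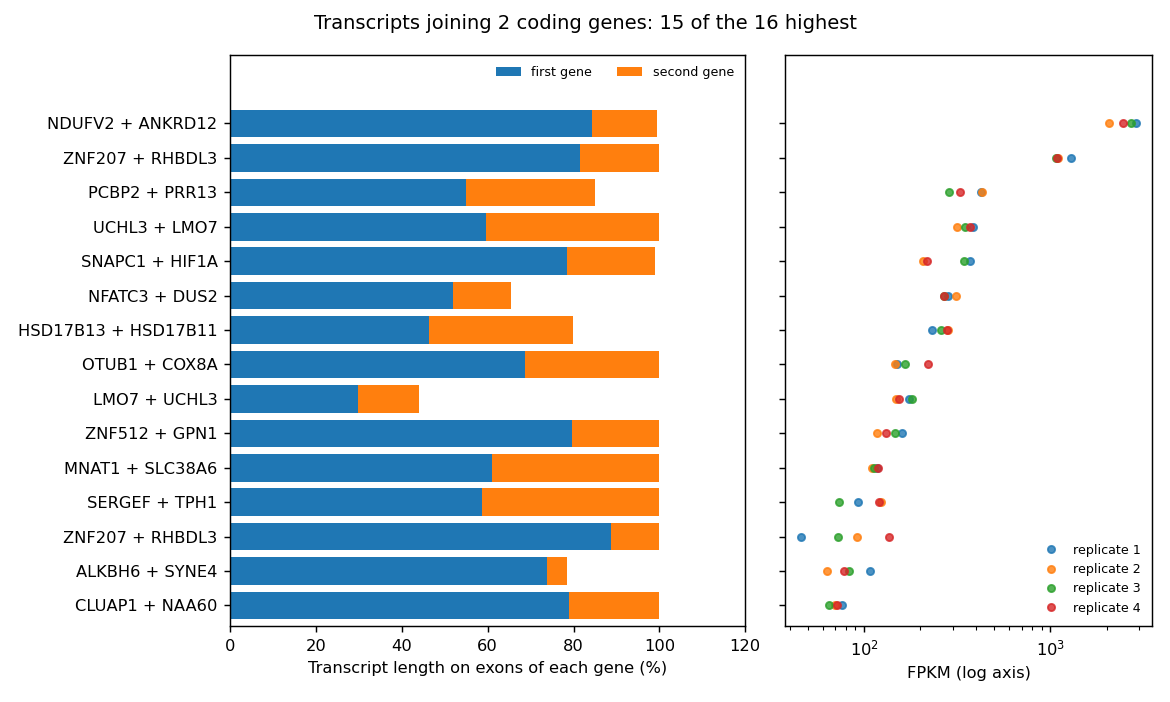
Of the 16 read-through transcripts of highest mean, 15 are plotted: the left panel gives the percentage of each transcript's length on exons of its hosts, with the host of larger share first, and the right panel its FPKM in each library on a log axis. NDUFV2 supplied 84.4% of the highest transcript, and levels fell from a mean of 2519 FPKM for NDUFV2 and ANKRD12 to 70.6 FPKM for CLUAP1 and NAA60.

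Transcripts inside a 3′ UTR gave several of the highest values. ENST00000418300 (chr1:990413-991496, plus strand, 402 nt) lay wholly in the 3′ UTR of AGRN, the proteoglycan agrin, and stood at 829, 561, 512 and 587 FPKM, with replicate 1 above the other 3. ENST00000416099 (chr1:111981262-111983850, minus strand) had 74.3% of its bases in the 3′ UTR of WDR77, a subunit of the methylosome, and stood at 498, 462, 403 and 445 FPKM. ENST00000566639 (chr16:81064375-81065090, plus strand), a single exon in the 3′ UTR of the centromere protein gene CENPN, was even at 452, 465, 433 and 409 FPKM, and 25.6% of it was repeated sequence.

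The longest of the 282, ENST00000570269 (15214 nt, 1 exon, chr3:114033348-114048561), covered 3′ UTR of ZBTB20, a zinc finger repressor, and was the 1 transcript that held a small RNA gene on its strand, MIR568. It stood at 122, 113, 100 and 62.5 FPKM, replicate 4 being the lowest. For HAPSTR1, a stress response gene, the table also held a 10359 nt row of its own, now annotated as protein-coding. That row had 375 ± 23.1 FPKM, while the 8334 nt lncRNA on its 3′ UTR (ENST00000574616) had 261 ± 11.98 FPKM. Reads that match both rows are divided by estimation, so these values depend on each other. Rows of the host with the largest share were present for 18 of the 282 transcripts, with further hosts not counted. Most rows of host genes were not annotated as protein-coding transcripts.

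Some of the highest transcripts shared very little with their host. ENST00000558039 (chr15:45444862-45459724, minus strand, 595 nt) met the 3′ UTR of SHF, an SH2 domain adaptor, with 41 bases (6.89%), and stood at 1733, 1680, 1836 and 1392 FPKM. Replicate 4 was the lowest, and 52.2% of the transcript was repeated sequence. ENST00000371487 met a 5′ UTR exon of ESM1, a secreted proteoglycan, with 44 bases and had 617, 648, 669 and 497 FPKM. ENST00000524309 met NKAIN3, an interactor of the sodium pump, with 27 bases and had 493, 625, 468 and 447 FPKM. ENST00000432530 met ZNF248, a zinc finger gene, with 50 bases and had 319, 414, 372 and 383 FPKM. In these last 3, repeated sequence made up 25.0%, 42.4% and 33.3%.

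**Figure D3:**
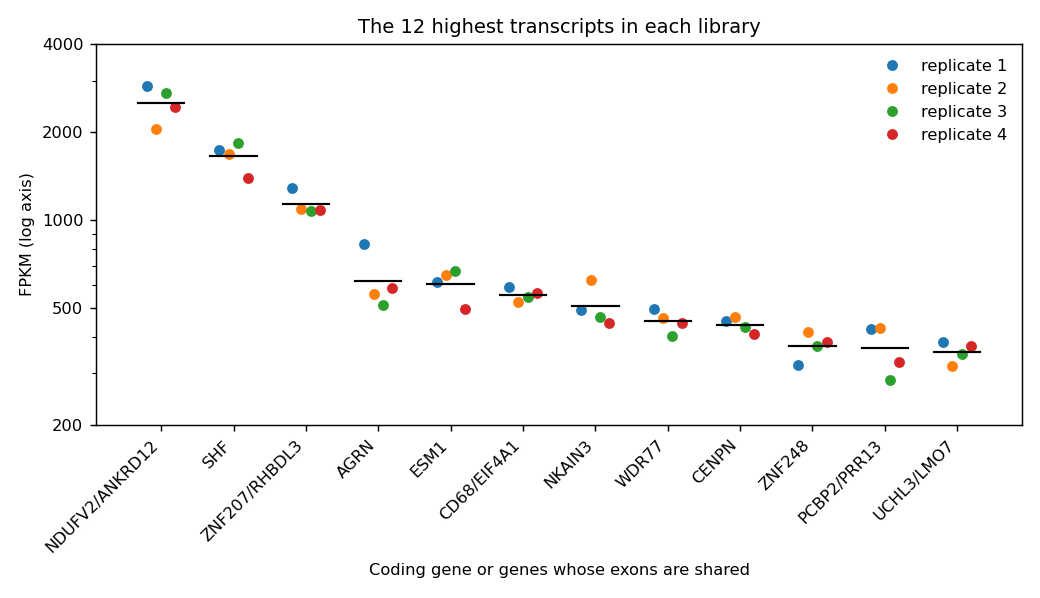
FPKM in each of the 4 libraries (points, log axis) for the 12 transcripts of highest mean, named by host gene, with the mean as a black line. The libraries of NDUFV2/ANKRD12 (2049.7 to 2869) and ZNF207/RHBDL3 (1073 to 1288) each lie above all libraries of the 9 transcripts from AGRN rightwards, the highest of which is 829.

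Among transcripts sharing coding sequence without a join, ENST00000581621 (chr17:7476144-7485342, plus strand, 4554 nt) ran across CD68, a lysosomal glycoprotein of macrophages, and EIF4A1, the RNA helicase of translation initiation. All of its 11 junctions were also junctions of coding transcripts, and 29.3% of it matched the pseudogene EIF4A1P2. It stood at 593, 524, 545 and 564 FPKM (557 ± 29.4), a CV of 5.28%. ENST00000508096 shared 76.6% with ZRANB1, a deubiquitinase, and stood at 324, 327, 313 and 346 FPKM, the smallest spread (CV 4.22%) of the 13 highest transcripts. In the band of 10 to under 50%, ENST00000451142 shared 15.96% with KDM4C, a histone demethylase, at 220 ± 25.2 FPKM, and ENST00000454631 shared 42.0% with the coding gene ENSG00000287856 at 295 ± 39.5 FPKM.

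Grouped by host gene, 50 of the 282 transcripts fell into 11 lists of gene classes, a list of muscle and stromal genes held 0, and 232 transcripts were on no list. By limma 50.4% of all 282 transcripts were above 5 FPKM, where the background was 24.1% of all transcripts, tested or not. On the same basis the shares were 58.3% of 12 on mitochondrial hosts, 50.0% of 12 on ubiquitin hosts, 85.7% of 7 on zinc finger hosts and 66.7% of 6 on cell cycle hosts. The last of these lists also held MCM3AP, a gene of mRNA export. No list was tested against the rest. Angiotensinogen (AGT), the liver-secreted precursor of angiotensin, was the only host on the list of secreted liver proteins, and its lncRNA ENST00000412344 (29.1% shared) stood at 85.4, 95.2, 80.6 and 119 FPKM. The list was not complete. MST1, a secreted growth factor made in liver, was not on it, and its lncRNA (ENST00000563780) stood at 137 ± 35.6 FPKM with 65.0% of its sequence matched to MST1P2, a pseudogene. Of liver metabolism, both measured transcripts were above 5 FPKM by limma. ENST00000512005 on AHCY, the hydrolase of S-adenosylhomocysteine, had 282, 311, 318 and 381 FPKM, and ENST00000525023 in the 3′ UTR of DGAT1, a triglyceride-forming enzyme, had 17.0, 40.1, 23.2 and 36.0 FPKM. The AHCY libraries lay far above the DGAT1 libraries.

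Mitochondrial hosts had 12 transcripts, of which 7 (58.3%) were above 5 FPKM by limma and 2 below. Besides NDUFV2, OTUB1 and COX8A (a deubiquitinase and a cytochrome c oxidase subunit) shared ENST00000535431 at 150, 146, 166 and 220.0 FPKM, with replicate 4 highest. MRPS6, of the mitochondrial ribosome, shared ENST00000362077 with SLC5A3, a myo-inositol transporter, at 63.3 ± 8.95 FPKM. The 1 RNA processing transcript joined COQ9, of coenzyme Q synthesis, to POLR2C, an RNA polymerase II subunit, at 62.7, 33.0, 47.3 and 30.9 FPKM.

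Zinc finger hosts had 7 transcripts, of which 6 were above 5 FPKM by limma and 1 was listed at 0. ZNF512 joined to GPN1, a GTPase, stood at 139 ± 17.9 FPKM. Cell cycle and DNA repair hosts had 6 transcripts with 4 above and 0 below. Besides CENPN, MCM3AP was on this list although it is a gene of mRNA export. Its transcript, counted among the 4 above, stood at 98.4 ± 9.21 FPKM. Ubiquitin and proteasome hosts had 12 transcripts with 6 (50.0%) above and 4 below. The highest was the UCHL3 isoform ENST00000570285, followed by the OTUB1 and COX8A transcript and then the second UCHL3 isoform. Of membrane trafficking, 2 of 4 were above: STX6 (a syntaxin) at 90.9 ± 7.45 FPKM and SNX2 (a sorting nexin) at 9.37 ± 2.72 FPKM, while SNX19 at 3.34 ± 0.835 FPKM could not be placed (it was below without the trend, adjusted p = 0.023 by limma). The translation list held the EIF4A1 transcript alone.

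The lists of genes typical of other tissues held few hosts, but most hosts were on no list, and these lists were not complete either. A transcript on SPNS1 and LAT, the latter a T-cell adaptor, was on no list. It stood at 73.1 ± 9.64 FPKM and was above 5 FPKM by limma. RGS5, a pericyte gene, was not on the muscle and stromal list, and its highest lncRNA transcript stood at 18.2 FPKM. Of 5 blood and immune transcripts 2 were above 5 FPKM by limma, the CD68 and EIF4A1 transcript above and ENST00000498032, which met CD200, a membrane glycoprotein, for 32.4% of its length and stood at 69.6, 94.9, 65.1 and 74.1 FPKM. A transcript on CCL27, a chemokine, at 6.78 ± 1.02 FPKM could not be placed (it was above with no filter or no trend, adjusted p = 0.031 and 0.040 by limma), and the remaining 2 were listed at 0. Of 2 neural transcripts, that on GABRA2, a GABA receptor subunit, stood at 22.6, 31.5, 23.7 and 19.3 FPKM, and that on the potassium channel gene KCNJ13 was listed at 0 in all 4 libraries. In each list the level is that of the lncRNA row and not of the host.

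Several lncRNA genes had more than 1 row, which allowed isoforms with different shares of coding sequence to be set side by side. Such genes numbered 35, with 100 rows, up to 9 rows for the gene on RGS5. In 24 of them the highest isoform had a mean of at least 5 FPKM, and in 22 of these its 4 libraries did not overlap those of the next isoform. Isoforms were ranked by the means of these same libraries, which favours such gaps. The share over other genes with several rows was not computed, so no conclusion is drawn from this count. The highest isoform had the larger share on coding exons in 13 of the 24 and a smaller or equal share in 11. RSEM divides reads that match several isoforms by estimation, so the values within a gene depend on each other.

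Genes differed in which isoform was high. On SPOPL, a substrate adaptor of a ubiquitin ligase, ENST00000449869 lay wholly on host exons and had 220.1, 210.0, 228 and 187 FPKM, while ENST00000458007, with 18.4% shared, had 1.58, 3.42, 7.12 and 1.97, a 60.02-fold difference of means. On EMC3, a membrane protein insertase subunit, the order was the reverse. The isoform with 1.74% shared (ENST00000383808) had 101.4, 97.2, 127 and 96.0 FPKM, 170-fold above the mean of the next, which shared 15.9%. On ESR2, the estrogen receptor beta gene, the isoform with 8.97% shared had 263 ± 24.1 FPKM and that with 30.5% shared had 59.0 ± 4.12 FPKM. The second NDUFV2 and ANKRD12 isoform (ENST00000578850, 198 nt) lay wholly on coding exons and had 28.5 ± 7.90 FPKM, 88.3-fold under the first.

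**Figure D4:**
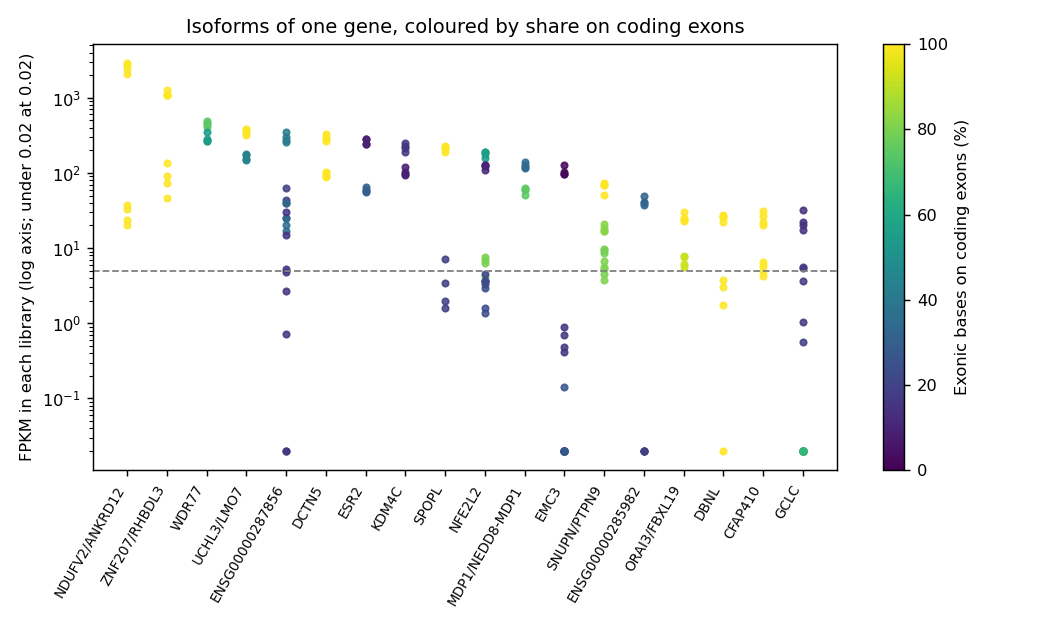
FPKM of every isoform in each library (points, log axis, values under 0.02 drawn at 0.02) for the lncRNA genes with several rows whose highest isoform had a mean of at least 20 FPKM, named by host and coloured by the percentage of bases on coding exons. For SPOPL the high isoform is the one wholly on host exons, while for EMC3 and ESR2 it is the one with the smaller share.

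The spread between libraries was smaller at higher levels: the median CV was 24.5% for the 52 transcripts between 5 and 20 FPKM, 15.02% for the 58 between 20 and 100 and 11.2% for the 48 above 100. ENST00000571197 (chr16:68259872-68263048, minus strand, 3177 nt, 1 exon), which met the 3′ UTR of ESRP2, an epithelial splicing regulator, with 113 bases, departed from this. It stood at 552, 484, 138 and 122 FPKM, a CV of 69.6%. Replicates 1 and 2 were high and replicates 3 and 4 low, where counting error alone would give a CV of about 1.46% at its estimated 4722 fragments. It was above 5 FPKM in all 4 libraries (adjusted p = 3.38e-07 by limma).

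The same transcript had 2796 bases on coding exons of the opposite strand, and 1766 of its bases (chr16:68259872-68261637) lay opposite ENST00000571975, which shared 45.8% with NFATC3. The NFATC3 transcript was even at 226, 262, 211 and 205 FPKM, so the division between libraries seen on the minus strand was not seen on the plus strand. Whether reads were assigned by strand is not given in the sources used here. The other transcripts of highest CV among those with a mean of at least 5 FPKM were low: ENST00000450783 on ENSG00000287856 had 0, 14.7, 30.2 and 0 FPKM, and ENST00000447956 on ENSG00000286022 had 0, 14.8, 1.62 and 11.4 FPKM.

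Around 5 FPKM the libraries did not decide the side. Just above it stood transcripts on TRMT2A (4.95, 6, 4.73 and 5.78 FPKM), MTHFS (5.87, 7.29, 4.98 and 3.22) and SNUPN with PTPN9 (6.73, 5.55, 5.24 and 3.82). Just below it stood transcripts on SHF (4.48, 4.55, 4.66 and 6.21), MGAT4C (5.47, 0, 7.97 and 4.83) and CCDC175 with L3HYPDH (4.90, 4.18, 4.82 and 4.03). All 6 could not be placed by limma, with adjusted p between 0.35 and 0.95, and 5 of them had libraries on both sides of 5 FPKM. The TRMT2A transcript also had the smallest overlap with a host, 1 base, followed by 5 bases on PPP1R14B (10.2 ± 2.57 FPKM) and 11 bases on INTS11 (14.965 ± 3.69 FPKM). Transcripts just outside the overlap rule have 0 shared bases, and their medians are those of the other unnamed groups given above.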

How the data were processed

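RNA of HUH7 cells was made into strand-specific libraries after Ribo-Zero depletion, although the labels also name polyA RNA. The authors deposited FPKM values, which per the submitters' processing notes and the methods came from Bowtie 1.01 and RSEM 1.2.3 on Ensembl 68 non-coding transcripts (hg19, GRCh37). No scaling between libraries was described, and none was added. Of 19835 identifiers 18373 matched GENCODE 44 models on GRCh37 after removal of the version, and 202 of the 282 transcripts had the same version. No label ties the libraries to separate cultures, and the letters L and H in the titles (2 libraries each) entered no test. The p-values therefore cover only the spread between the 4 libraries, and this spread may be technical.

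A one-sample moderated test in limma 3.58.1 compared log2(FPKM + 1) with log2(5 + 1) (R 4.3.3, mean-variance trend, two-sided, Benjamini-Hochberg over the 11435 transcripts whose mean reached 0.1 FPKM, threshold 0.05), which was checked on simulated data. On this log2(FPKM + 1) scale the differences of low transcripts are understated. Sequence shared with genes of another locus was found with blastn 2.17.0 (at least 50 nt, 95% identity, sense strand) and repeats with 1 in 16 sampled 24-mers. Fragments were estimated from the steps of low FPKM values with an effective length of the transcript minus 80 nt. Between 62.6% and 63.6% of these values lay within 0.05 of a whole fragment, so depths are approximate and no count test was run. They cover counting error only.

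The transcripts and gene lists were chosen with earlier results of these data known, and list patterns for CD, ARL and SNAP genes were narrowed after matching names. Named were the 12 highest transcripts, the 4 highest per overlap band, the 5 highest on 2 or more hosts, the 3 nearest to 5 FPKM on each side, the 3 of highest CV with a mean of at least 5 FPKM and the 3 highest per list. Joins, isoforms, HAPSTR1, ZBTB20 and the smallest overlaps were added after their values were seen. Alternatives changed the pseudocount (0.1), filter, threshold (1 and 10 FPKM), scaling, trend, overlap rule and libraries. The level of 1 transcript named by this rule is not reported here.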

Additional observations from a re-analysis of the deposited data

Results flagged for a closer look

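Among 45 sets of 4 library values (42 named transcripts and 3 totals), 2 had a library far from the others by Dixon's ratio, the gap to the nearest value over the whole range, above its 95% critical value. Chance alone gives about 1 in 20. ENST00000581915 on ZNF207 and RHBDL3 had a ratio of 0.891, with replicate 1 at 1288 FPKM against 1073 to 1096 in the others. ENST00000568314 on SHF had a ratio of 0.896, with replicate 4 at 6.21 FPKM against 4.48 to 4.66. Replicate 4 was the 1 library in which the SHF transcript exceeded 5 FPKM, and it could not be placed by limma (adjusted p = 0.95).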

How the results depend on the processing

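The number of transcripts above 5 FPKM by limma (142) stayed within 1.5 times under every change of pseudocount, filter, threshold, scaling, trend, library and version, and was 139 to 142 when each library was left out in turn. Requiring overlap with coding sequence instead of any exon left 65 above and 16 below 5 FPKM and 71 with a mean above it (158 otherwise), by construction of a smaller set. The number below (42) was 105 with no filter, 20 with a filter of 1 FPKM, and 9 and 68 against thresholds of 1 and 10 FPKM. The median of 8.47 FPKM became 18.3 with coding sequence overlap, 11.015 with the same model version, 6.78 without repeated or shared sequence (chosen after seeing the data), 15.1 with 1 value a gene (chosen after seeing the data) and 7.46 to 9.12 without 1 library each, the lowest without replicate 2. No paired analysis was possible because the libraries form a single group.

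Of 41 named transcripts tested, 30 kept their side and call under every alternative, and 33 did so apart from the threshold changes. The log2 difference changed sign in 11 transcripts near 5 FPKM. Against 1 FPKM it was 1.23 for ENST00000450783, 1.25 for ENST00000447956, 1.57 for ENST00000568314, 1.10 for ENST00000550014, 1.45 for ENST00000554253 and 1.10 for ENST00000525716. Against 10 FPKM it was -0.12 for ENST00000565823, -0.51 for ENST00000564224, -0.79 for ENST00000412713, -0.84 for ENST00000567415 and -0.82 for ENST00000568707. With each library left out in turn, the sign changed in 6 of them. The range was -1.26 to 0.39 for ENST00000450783, -0.91 to 0.42 for ENST00000447956, -0.11 to 0.22 for ENST00000567415, -0.044 to 0.18 for ENST00000568707, -0.11 to 0.023 for ENST00000568314 and -0.84 to 0.22 for ENST00000550014. None of these left-out values passed the threshold. Transcripts not placed gained a call with the same sign in 11 instances, 8 of them by a change of threshold. The others of these 11 were ENST00000564224 above 5 FPKM with no filter and with no trend and ENST00000525716 below it with no trend. Further calls were gained with a changed sign, all by a change of threshold. Against 1 FPKM these were ENST00000568314, ENST00000554253 and ENST00000525716, and against 10 FPKM ENST00000564224, ENST00000412713, ENST00000567415 and ENST00000568707.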
